A study of Mus musculus with 6 samples.

Results

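Proteasome genes were measured by RNA-seq in AML12 cells, a mouse hepatocyte line derived from an animal transgenic for human TGFA, 72 h after transfection with an siRNA against Uhrf2 (siUhrf2) or a scrambled siRNA (siCtrl), both carried by Lipofectamine RNAiMAX. Members were the protein-coding genes of GENCODE M21 whose symbols start with Psma, Psmb, Psmc, Psmd, Psme, Psmf or Psmg, without Psmb8, Psmb9 and Psmb10: 47 genes of 35709 in the deposited table. Of these, 44 had a mean of at least 1 FPKM (fragments per kilobase of transcript, scaled to library size) over the 6 libraries and were tested. The other 3 were Psma8, at 0 in every library, Psmb11 at a mean of 0.0654 FPKM and Psme2b at 0.352 FPKM. The lowest of the tested members was Psmc3ip at 9.26 FPKM. There were 3 libraries of total RNA in each group. Nothing in the labels ties them to separate cultures, so the p-values reflect the spread among these libraries alone, which may be technical.

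The 26S proteasome degrades proteins tagged with ubiquitin. Its 20S core is a barrel of alpha rings outside and beta rings inside, where the catalytic sites lie, and the 19S particle caps it with a base of ATPases that unfold the substrate and a lid that removes ubiquitin. Other caps, the PA28 and PA200 activators, open the core without using ATP, and assembly chaperones build the rings. In hepatocytes, as in other cells, subunit genes are known to be induced together by the transcription factor NRF1 (gene Nfe2l1) when proteasome activity falls.

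Uhrf2, which encodes a RING-type ubiquitin ligase, had 8899, 9058 and 9018 normalized counts in the siCtrl libraries and 2942, 2805 and 2777 in the siUhrf2 libraries. The 3 libraries labelled siUhrf2 all lay below the 3 labelled siCtrl (log2 fold change -1.66, SE 0.034; limma adjusted p = 7.58e-11). Library depth lay between 44.6 and 53.1 M estimated reads. The libraries numbered 1 stood apart from the other libraries of their group: pairs that held one of them had a chi-square per degree of freedom of 7.95 to 12.7, and the other pairs 3.21 to 4.38. Of the hepatocyte markers, Krt8, Krt18 and Hnf4a averaged 878, 1003 and 83.4 FPKM, while the plasma protein genes of that list were low: Ttr averaged 4.84 FPKM, Serpina1a 1.49, Alb 0.611, Apoa1 0.132 and Apoa2 0.0209. Markers of endothelial cells summed to at most 0.11 FPKM in any library, and those of fibroblast and stellate cells to at most 1.38 FPKM. Summed hepatocyte markers were higher in siUhrf2 (2173 to 2385 FPKM) than in siCtrl (1586 to 1709.9 FPKM), a sum made up almost wholly of Krt8, Krt18 and Hnf4a, which rose by 0.53, 0.49 and 0.09 on the log2 scale. Serpina1a fell (log2 change -1.18; limma adjusted p = 0.000526), and Ttr had a difference of -0.83 that did not pass. Summed cholangiocyte markers were 552 to 602 against 302 to 336 FPKM, with Krt19 and Sox9 higher (0.99 and 0.17), Krt7 lower (-0.16) and Epcam at 0. The part of these markers in the rise of proteasome subunits was not tested.

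Most subunits of the 20S core and the 19S particle were slightly higher after Uhrf2 knock-down, while Psme1 and Psme2, the genes of PA28 alpha and beta, were lower. Of the 44 tested members, 26 (59.1%) rose and 5 (11.4%) fell at a limma adjusted p under 0.05, and 13 did not pass. Over all 11343 genes tested, 29.9% rose and 31.1% fell, 61.0% in all. Proteasome genes are abundant, so the 2707 genes averaging 50 FPKM or more are a closer background: 39.0% of them rose and 29.3% fell, 68.2% in all, against 25 (69.4%) and 4 (11.1%) of the 36 members at that level. The median log2 change was 0.11 for the tested members, -0.01 for all tested genes and 0.04 for genes at 50 FPKM or more. Changes were small throughout, from -0.46 to 0.50, and a median of 0.11 is a 1.08-fold level.

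The groups did not overlap in 29 members with the higher and 6 with the lower values in siUhrf2, where 32.5% and 34.1% of all tested genes had such a separation. Among genes at 50 FPKM or more those shares were 41.2% and 32.1%. Calls of a rise were more frequent in the structural subunits: 24 of the 31 tested 20S and 19S subunits rose (77.4%), 2 fell and 5 did not pass. Of the 13 other tested members 2 rose (15.4%), 3 fell and 8 did not pass. Their median log2 change was 0.05 against 0.12 for the subunits. Their intervals were also wider, with a median half-width of 0.11 against 0.07, which makes a call harder to reach. The part of this in the counts was not tested. When a minimum change of 1.2-fold was built into the test (limma treat), 2 members passed, Psmd7 and Psmg4, so for the rest the calls concern a change above 0 and not one above 1.2-fold. Without siUhrf2 replicate 2, the number of members that rose was lowest, at 20. The number that fell was 3 instead of 5 without siCtrl replicate 2 or 3 or siUhrf2 replicate 2 or 3.

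**Figure D1:**
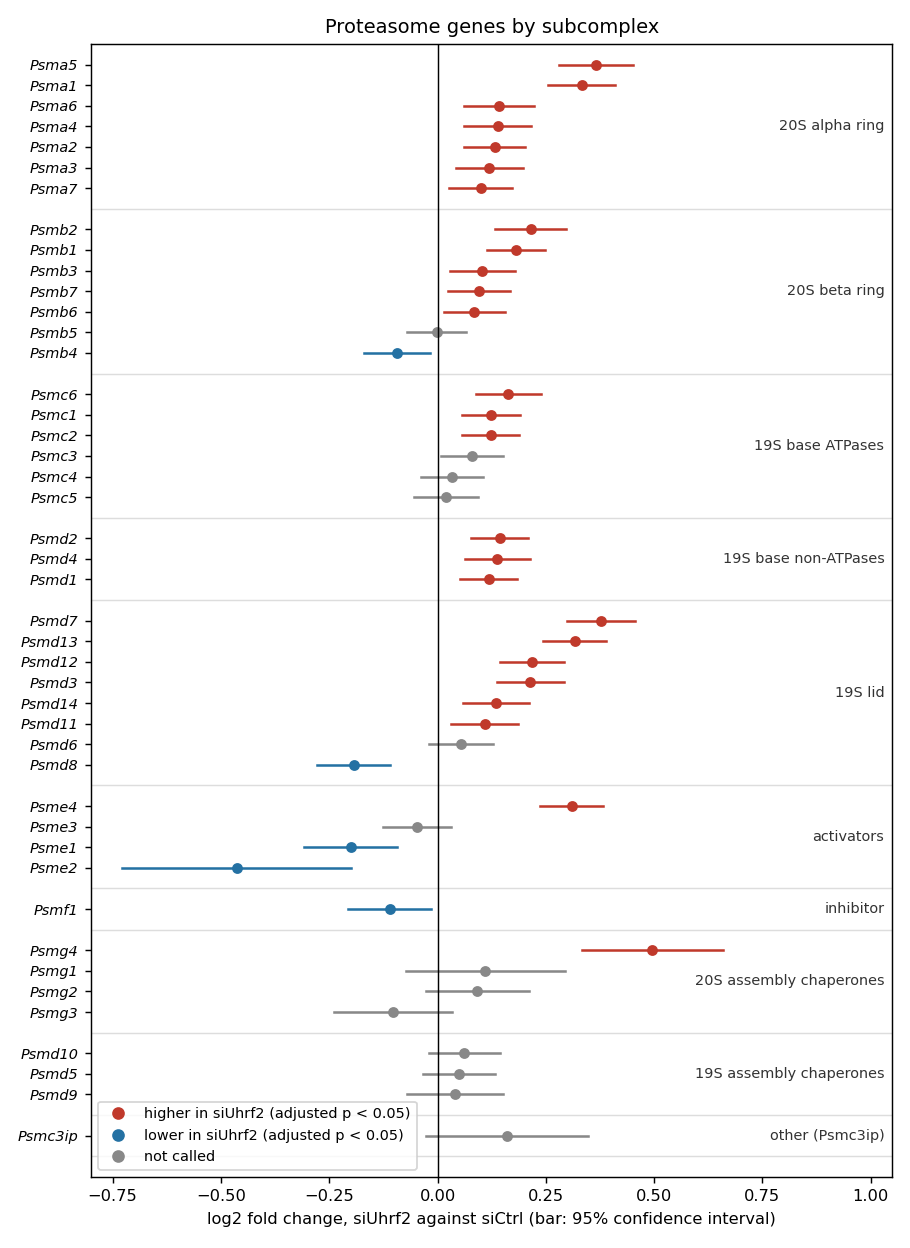
Log2 fold change of each of the 44 tested proteasome genes (siUhrf2 against siCtrl, 3 libraries each) with its 95% confidence interval, grouped by subcomplex and coloured by the limma call. Nearly all 20S and 19S subunits lie right of 0, with Psmb4, Psmb5 and Psmd8 as exceptions, whereas Psme1 and Psme2 lie left of it.

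All 7 tested genes of the 20S alpha ring rose, where 39.0% of genes at 50 FPKM or more did. The alpha subunits form the gate of the core and the docking surface for the caps. Psma5, at chromosome 3, 108256926 to 108279974 on the plus strand (GRCm38), had 2992, 3031 and 3115 normalized counts in siCtrl and 3756, 4075 and 3943 in siUhrf2. All siUhrf2 libraries were above all siCtrl libraries, and the log2 change was 0.37 (95% interval 0.28 to 0.45; limma adjusted p = 9.6e-06). Psma1, at chromosome 7, 114264606 to 114276118 on the minus strand, followed with 0.33 (0.26 to 0.41; limma adjusted p = 8.39e-06), its mean rising from 5948 ± 179 to 7488 ± 197 normalized counts (SD, n = 3).

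The other alpha subunits changed by less. Psma6, Psma4, Psma2 and Psma3 rose by log2 changes of 0.14, 0.14, 0.13 and 0.12. Psma7, the lowest, had 5592, 5491 and 5724 normalized counts in siCtrl and 5844, 6037 and 6133 in siUhrf2, a log2 change of 0.10 (0.03 to 0.17; limma adjusted p = 0.0213). Psma7 no longer passed without siCtrl replicate 2 or siUhrf2 replicate 2 or 3 (limma adjusted p = 0.0653 to 0.0929). Its call was also lost without the variance trend (0.051). Psma3 no longer passed without siUhrf2 replicate 2 or 3 (limma adjusted p = 0.0508 and 0.0609). The intervals of Psma5 and Psma1 lay above those of the other 5 alpha subunits without overlap, and that difference itself was not tested. Psma8, the testis-specific alternative to Psma7, was listed at 0. The summed level of the ring went from 830.4 ± 5.998 to 934.8 ± 19.9 FPKM (SD, n = 3), 1.13-fold.

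In the 20S beta ring 5 of 7 tested genes rose, 1 fell and 1 did not pass, beside 39.0% rising and 29.3% falling among genes at 50 FPKM or more. Psmb5, Psmb6 and Psmb7 encode the catalytic subunits with chymotrypsin-like, caspase-like and trypsin-like activity. Psmb5, at chromosome 14, 54614119 to 54618022 on the minus strand, had 5354, 5356 and 5374 normalized counts in siCtrl and 5369.6, 5239 and 5451 in siUhrf2. Its groups overlapped, and the log2 difference was -0.0024 (95% interval -0.07 to 0.07; limma adjusted p = 0.953).

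Psmb6 had 4764.5, 4886 and 4739 normalized counts in siCtrl and 5039, 5196 and 5023 in siUhrf2 (log2 change 0.08, 0.01 to 0.15; limma adjusted p = 0.0392). Psmb7 had 5544, 5725 and 5554 in siCtrl and 5855, 6103 and 6016 in siUhrf2 (log2 change 0.10, 0.02 to 0.17; limma adjusted p = 0.0229). Both catalytic genes were separated between the groups, by margins of a few percent. Psmb6 no longer passed without siCtrl replicate 1 or 3 or siUhrf2 replicate 2 or 3 (limma adjusted p = 0.0649 to 0.144), with equal library totals (0.0689), on FPKM (0.0507), without the filter on low values (0.109) or without the variance trend (0.068). Psmb7 no longer passed without the same libraries (0.0582 to 0.0909), the filter (0.0574) or the trend (0.0507). Psmb7 shares 405 exonic bases with Nek6 on the opposite strand, of the 3421 it has. Nek6 averaged 4946 normalized counts against 5800 for Psmb7. The strand setting of the authors' counting is unknown here; without strand, reads from that stretch could not be told apart.

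Among the structural beta subunits, Psmb2 moved most. It is a plus-strand gene on chromosome 4 (126677630 to 126709714) and had 3368, 3465 and 3287 normalized counts in siCtrl against 3789, 4027 and 3932 in siUhrf2 (log2 change 0.21, 0.13 to 0.30; limma adjusted p = 0.00039). Psmb1 and Psmb3 rose by 0.18 and 0.10. Psmb4 was the lone 20S subunit that fell, from 4711, 4899 and 4918 to 4662, 4535 and 4419 normalized counts, a log2 change of -0.09 (-0.17 to -0.02; limma adjusted p = 0.0349). Its groups were separated by less than 50 counts, and its call was lost under median-of-ratios, upper-quartile and quantile scaling (adjusted p = 0.066, 0.079 and 0.0718) and without any 1 of siCtrl replicates 2 and 3 or siUhrf2 replicates 2 and 3 (0.083 to 0.14). The call of Psmb4 was also lost without a filter on low values (0.0801) and without the variance trend (0.0703).

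Summed over the ring, the beta subunits went from 768.8 ± 7.50 to 799.4 ± 8.68 FPKM (SD, n = 3), 1.04-fold. The alpha sum therefore grew against the beta sum, from 1.08 ± 0.0165 to 1.17 ± 0.0338 in FPKM, with siCtrl libraries at 1.082, 1.063 and 1.096 and siUhrf2 libraries at 1.131, 1.184 and 1.193. The number of 20S subunits that rose, 12 of 14, depended on single libraries: it was 7 without siUhrf2 replicate 2, 8 without siUhrf2 replicate 3, 9 without siCtrl replicate 1 or 3 and 11 without siCtrl replicate 2. Without siUhrf2 replicate 2, Psma3, Psma7, Psmb3, Psmb6 and Psmb7 no longer passed, at log2 changes between 0.07 and 0.11. The thymus-specific Psmb11 stayed under 11 normalized counts in each library.

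Sequence before the start sites was compared because so many subunits moved in the same direction. RefSeq promoters (GRCm38.p6, 250 bases before to 50 after a start) were found for 39 of the 47 members. The CCAAT box, bound by NF-Y and searched on both strands, was present in promoters of 5 of the 7 tested alpha ring genes, of 10 of the 21 members that rose and had a promoter, and of 0 of the 5 that fell. Psma4 and Psma5, which also rose, held no box. Among members tested and not called, the box was present for 3 of 11 (Psmc3ip, Psmd10 and Psme3). It was also present for 41.1% of all 27025 genes with a promoter and 43.9% of the tested ones, so the share among risers, 47.6%, was near the background. A stretch is shown for each of the 4 alpha ring genes with a box in sequence wholly before the start site and outside M21 exons. The stretch of Psma7 overlaps an exon and is left out. All 7 tested alpha ring genes rose, so the rise does not set these 4 apart. Capitals mark CCAAT, and each stretch is written 5′ to 3′ on the gene's strand.
Psma1 (chr7:114276190-114276234, minus strand): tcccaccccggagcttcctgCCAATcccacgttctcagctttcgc
Psma2 (chr13:14613168-14613212, plus strand): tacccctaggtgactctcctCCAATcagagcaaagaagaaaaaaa
Psma3 (chr12:70974464-70974508, plus strand): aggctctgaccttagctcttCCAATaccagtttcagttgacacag
Psma6 (chr12:55384173-55384217, plus strand): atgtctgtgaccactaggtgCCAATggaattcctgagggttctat
The box shown begins 98 bases before the start in Psma1, 54 in Psma2, 139 in Psma3 and 29 in Psma6.

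The core of the antioxidant response element, TGACNNNGC, through which NRF1 and NRF2 bind with small MAF proteins, was found for 6 of the 39 members (15.4%), against 3781 of all 27025 genes with a promoter and 17.2% of the tested ones. Members that rose held it in 4 of 21 cases, members tested and not called in 2 of 11 (Psmb5 and Psmd9) and members that fell in 0 of 5. The share among risers was therefore near that among members without a call and among tested genes. In Psmb5, which did not pass, the element begins 47 bases before the start. The following 3 stretches come from subunit genes that rose, with the element in capitals; in Psmc6 and Psmd12 it is read on the opposite strand.
Psmb6 (chr11:70525328-70525356, plus strand): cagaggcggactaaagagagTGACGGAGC
Psmc6 (chr14:45329577-45329625, plus strand): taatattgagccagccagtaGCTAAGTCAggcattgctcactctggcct
Psmd12 (chr11:107479278-107479309, plus strand): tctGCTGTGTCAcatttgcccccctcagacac
In Psmb6 the element directly precedes the start site, and in Psmc6 and Psmd12 it begins 227 and 247 bases before it. The paired half-site of the interferon-stimulated response element, searched on both strands, was present for 5 of the 39 members (12.8%; Psmb3, Psmd4, Psmd9, Psme1 and Psmg4), against 4.0% of all genes with a promoter and 3.4% of the tested ones. It was held by 3 of the 21 members that rose, 1 of the 5 that fell (Psme1) and 1 of the 11 not called. Psme2, which fell, had none. A gamma-activated site, TTCNNNGAA, was present for 2 members (5.1%) against 9.6% and 8.2%. A match of letters is a description and not a binding site.

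In the 19S base, 3 of 6 ATPase genes rose and 3 did not pass, and all 3 non-ATPase genes rose. The share that rose among genes at 50 FPKM or more was 39.0%. The ATPases form the ring that unfolds and threads the substrate. Psmc6, which changed most among them, is a plus-strand gene on chromosome 14 (45329788 to 45349705). It had 5708, 5799 and 5856 normalized counts in siCtrl and 6226.5, 6576 and 6655 in siUhrf2 (log2 change 0.16, 0.09 to 0.24; limma adjusted p = 0.00154). Psmc1 and Psmc2 rose by 0.12 each.

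Psmc3 had separate groups and a log2 difference of 0.08 but did not pass (limma adjusted p = 0.0532), and it passed under 3 of 4 other scalings (0.0201 to 0.0259). It shares 215 exonic bases with Slc39a13 on the opposite strand, which averaged 1042 normalized counts. Psmc4 and Psmc5 had differences of 0.03 and 0.02 with overlapping groups. Psmc5, the lowest of the ring, had 5434, 5591 and 5630.1 normalized counts in siCtrl and 5467, 5610.4 and 5809 in siUhrf2 (limma adjusted p = 0.639). The summed ATPase level went from 720.3 ± 2.18 to 760.3 ± 6.64 FPKM (SD, n = 3).

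The non-ATPase genes of the base encode the large scaffold subunits and a ubiquitin receptor. Psmd2, a scaffold gene at chromosome 16, 20651652 to 20663414 on the plus strand, had 14154, 14633 and 14610.2 normalized counts in siCtrl and 15988, 16061 and 15866 in siUhrf2 (log2 change 0.14, 0.08 to 0.21; limma adjusted p = 0.00165). Psmd1, the other scaffold gene, had 13139, 12833 and 12727 against 13964, 14063 and 13954 (log2 change 0.12, 0.05 to 0.18; limma adjusted p = 0.005). Psmd4, the ubiquitin receptor gene, rose by 0.14 (limma adjusted p = 0.00454). These 3 genes stood within 0.03 of each other on the log2 scale.

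The lid showed the widest spread of any structural subcomplex, with 6 of 8 genes higher, 1 lower and 1 not passing. Background shares at 50 FPKM or more were 39.0% higher and 29.3% lower. Psmd7 and Psmd14 encode paired metalloprotease-fold subunits, of which Psmd14 is the active deubiquitinase. Psmd7, at chromosome 8, 107580381 to 107588464 on the minus strand, had 4735, 4816 and 4583 normalized counts in siCtrl and 5932, 6332 and 6107 in siUhrf2. That was the largest change of a structural subunit (log2 change 0.38, 0.30 to 0.46; limma adjusted p = 3.82e-06). Psmd14 had 6493.5, 6236 and 6433 against 6828, 7273 and 6935, a log2 change of 0.13 (0.06 to 0.21; limma adjusted p = 0.00548).

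Psmd13, Psmd12, Psmd3 and Psmd11, scaffold genes of the lid, rose by log2 changes of 0.32, 0.22, 0.21 and 0.11. Psmd11 no longer passed without siCtrl replicate 3 or siUhrf2 replicate 2 or 3 (limma adjusted p = 0.072 to 0.0899) or without the variance trend (0.054). Psmd6 had a difference of 0.05 with separate groups and did not pass (limma adjusted p = 0.181). Psmd13 overlaps Sirt3 on the opposite strand in 342 exonic bases, and Sirt3 averaged 519 normalized counts against 6704 for Psmd13.

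Psmd8 fell. It was the most abundant member per length, at 357 ± 9.57 FPKM in siCtrl and 309 ± 11.3 in siUhrf2 (SD, n = 3). The gene is located at chromosome 7, 29174188 to 29180701 on the minus strand and had 20488, 20114 and 19515 normalized counts in siCtrl and 16693, 18263.5 and 17620.4 in siUhrf2, without overlap (log2 change -0.19, -0.28 to -0.11; limma adjusted p = 0.00103). It made up 32.3% ± 0.503 of the summed lid FPKM in siCtrl and 26.7% ± 0.438 in siUhrf2. The lid sum rose 1.049-fold with Psmd8 and 1.14-fold without it, from 747.7 ± 3.58 to 849.9 ± 12.5 FPKM. Within a library, Psmd8 stood at 4.51 ± 0.0799 times the FPKM of Psmd7 in siCtrl and at 3.03 ± 0.0432 times in siUhrf2.

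**Figure D2:**
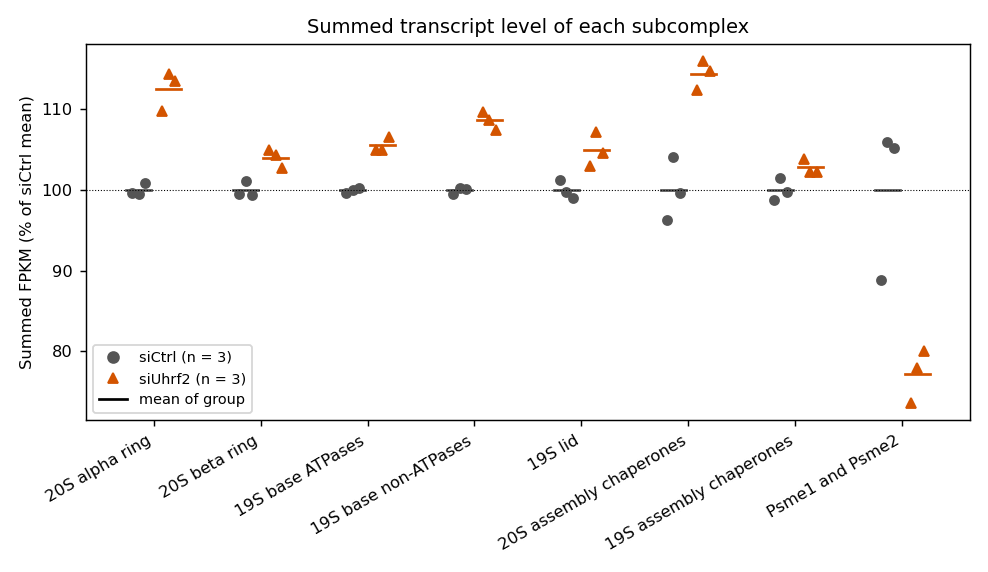
Summed FPKM of the tested genes of each subcomplex in every library, as a percentage of the siCtrl mean of that sum (dots siCtrl, triangles siUhrf2, bars group means, n = 3 each). The sums of the 20S and 19S parts are higher in all siUhrf2 libraries than in any siCtrl library, and the sum of Psme1 and Psme2 is lower.

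As sums, the 20S core went from 1599 ± 5.98 to 1734 ± 16.4 FPKM (1.08-fold) and the 19S particle from 2349.5 ± 8.60 to 2489 ± 21.1 FPKM (1.06-fold; SD, n = 3). The ratio of the 19S to the 20S sum was 1.48, 1.46 and 1.46 in the siCtrl libraries and 1.44, 1.43 and 1.44 in the siUhrf2 libraries. These sums add genes that were chosen together, so no test was made on them.

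The activators moved in opposite directions. Psme1 and Psme2 encode PA28 alpha and beta, the interferon-inducible cap that favours peptides for antigen presentation, and both fell. Psme2, at chromosome 14, 55587441 to 55591113 on the minus strand, had 2961, 3769.6 and 3706 normalized counts in siCtrl and 2290.2, 2645 and 2605 in siUhrf2. The library numbered 1 was lowest in each group, and the groups did not overlap (log2 change -0.46, -0.73 to -0.20; limma adjusted p = 0.0106). Without both libraries numbered 1, a comparison added after the data were seen, the change was -0.51.

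Psme1 lies beside Psme2 on the plus strand from 55578123 to 55581529 and had 2703, 2985 and 2975 normalized counts in siCtrl and 2465, 2426 and 2644 in siUhrf2 (log2 change -0.20, -0.31 to -0.09; limma adjusted p = 0.00407). Together they went from 188.8 ± 18.3 to 145.8 ± 6.23 FPKM (SD, n = 3). Relative to the summed 20S core in the same library, they stood at 10.5%, 12.5% and 12.4% in siCtrl and at 8.08%, 8.41% and 8.72% in siUhrf2. Psme2b is 99.4% identical to Psme2 over 794 transcript bases, and held between 0 and 27.4 normalized counts, so few reads were assigned to the copy and the split between both is uncertain. Other members have similar pseudogenes that the deposited table does not list. Among them are Gm13835 (100% identical to Psma3 over 665 bases), Gm8394 (98.6% to Psma5 over 952) and Gm5422 (97.0% to Psmd2 over 2590). How reads from these were assigned is unknown here.

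Macrophage and leukocyte markers were lower in the same libraries as Psme1 and Psme2. That list of 5 genes summed to between 7.43 and 9.18 FPKM in siCtrl and between 2.92 and 3.79 in siUhrf2; 2 of the 5 reached 1 FPKM and fell (Csf1r and Cd68), and Adgre1 and Clec4f were at 0. Their part in the fall of Psme1 and Psme2 was not tested. In bulk RNA, fewer cells of a type and less RNA per cell cannot be told apart. The immunoproteasome subunit gene Psmb10, whose product replaces that of Psmb7 in the core, fell from 700.4 ± 31.0 to 379 ± 27.4 normalized counts, and Psmb8 and Psmb9 averaged 0.0113 and 0.0914 FPKM.

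Psme4, which encodes PA200, rose. It is located at chromosome 11, 30771726 to 30880361 on the plus strand and had 7279, 7562 and 7547 normalized counts in siCtrl and 9542, 9112 and 9095 in siUhrf2 (log2 change 0.31, 0.24 to 0.38; limma adjusted p = 9.82e-06). Per length, Psme4 stood at 1.47 ± 0.0517 times Psme1 in siCtrl and 2.09 ± 0.127 times in siUhrf2. Psme3, which encodes the nuclear PA28 gamma, had a log2 difference of -0.05 with overlapping groups (-0.13 to 0.03; limma adjusted p = 0.276). Psmf1, which encodes the inhibitor PI31, had 1461, 1503 and 1441 normalized counts in siCtrl and 1347, 1389 and 1346 in siUhrf2. It fell by 0.11 on the log2 scale (limma adjusted p = 0.0462), a call that was lost under the same 3 scalings as that of Psmb4 (0.0848 to 0.0922) and without any 1 library (0.0598 to 0.139).

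**Figure D3:**
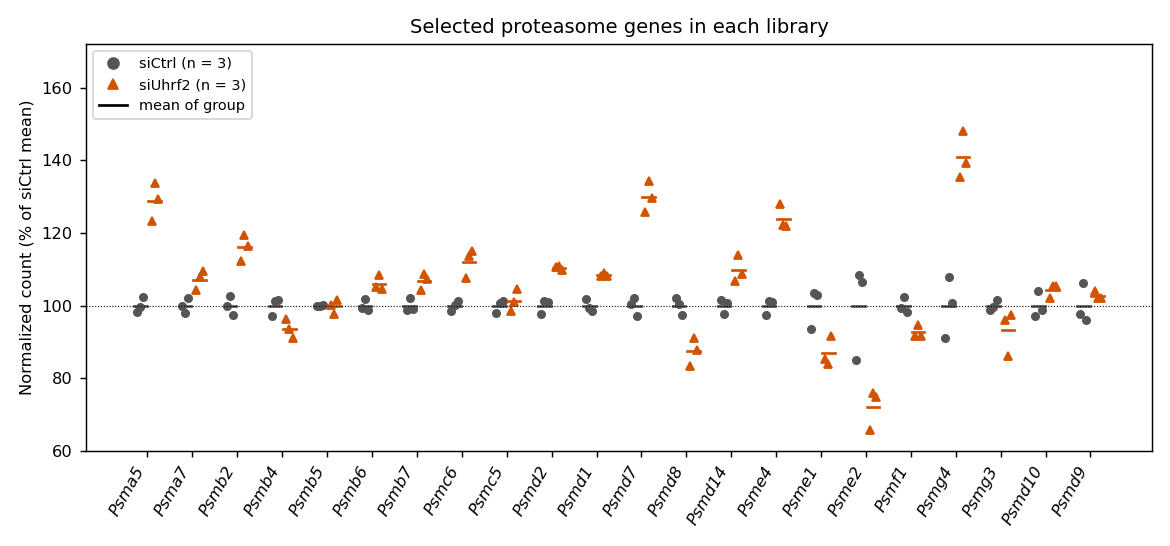
Normalized counts of the catalytic, deubiquitinase, activator, inhibitor and other selected members in every library, as a percentage of the gene's siCtrl mean (dots siCtrl, triangles siUhrf2, bars group means, n = 3 each). Psma5, Psmd7, Psme4 and Psmg4 lie clearly above 100% in siUhrf2, Psme2 and Psmd8 below, and Psmb5 and Psmc5 overlap between the groups.

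Of the assembly chaperone genes 1 of 7 rose and 6 did not pass, where 29.9% of all tested genes rose. Psmg4, which encodes a small subunit of the chaperone pair that orders the alpha ring, had the largest rise of all members. It is located at chromosome 13, 34162964 to 34178173 on the plus strand and had 463, 549 and 512 normalized counts in siCtrl and 688, 752 and 708 in siUhrf2 (log2 change 0.50, 0.33 to 0.66; limma adjusted p = 0.000137). Its partner Psmg3 had 789.7, 797 and 811 against 767, 688 and 779.7, lower in each siUhrf2 library without passing (log2 difference -0.10, -0.24 to 0.03; limma adjusted p = 0.17). Psmg1 and Psmg2, which form the other pair, had log2 differences of 0.11 and 0.09. Without siUhrf2 replicate 1, Psmg1 passed as well, with a log2 change of 0.20 (limma adjusted p = 0.0362).

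The chaperones of the 19S base lay close to no difference. Psmd10, which encodes gankyrin, had 3406, 3644 and 3458 normalized counts in siCtrl and 3575, 3692 and 3696 in siUhrf2 (log2 difference 0.06; limma adjusted p = 0.17). Psmd9 had 1222, 1329 and 1199.6 against 1301.5, 1276 and 1275 (0.04; limma adjusted p = 0.515), and Psmd5 a difference of 0.05. The interval of each of the 3 reached no further than 0.15. Psmc3ip, a meiotic recombination gene that the symbol rule takes in and that is no proteasome part, had a log2 difference of 0.16 with overlapping groups (limma adjusted p = 0.123). Without both libraries numbered 1 it passed, at 0.26 (0.016). It shares 385 of 1818 exonic bases with Mlx on the opposite strand, which averaged 1431 normalized counts against 465 for Psmc3ip.

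Levels per length differed far more between members than between groups. In siCtrl the 14 tested subunits of the 20S core spanned a 3.33-fold range, from Psmb7 at 57.4 ± 0.836 FPKM to Psma4 at 190.8 ± 2.39, although each subunit is present once in every ring. The 19S subunits spanned 6.86-fold, from Psmc2 at 52.1 ± 0.193 to Psmd8. In siUhrf2 these ranges were 3.43-fold and 5.50-fold. Psmc2, at the low end, shares stretches of at least 90% identity over 200 bases or more with 14 other genes. Among them, Rock1 and D10Wsu102e averaged 6465 and 4754 normalized counts, against 6964 for Psmc2. How reads from such stretches were assigned is unknown here. In siCtrl, mean levels of the assembly chaperones and Psmf1 ran from 12.2 FPKM for Psmf1 to 50.9 ± 1.62 for Psmd10, which did not differ from Psmc2 beyond the spread. Neighbours such as Psma4, Psmd14 and Psmd1, at 190.8, 190.0 and 189.9 FPKM in siCtrl, did not differ beyond their spread.

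**Figure D4:**
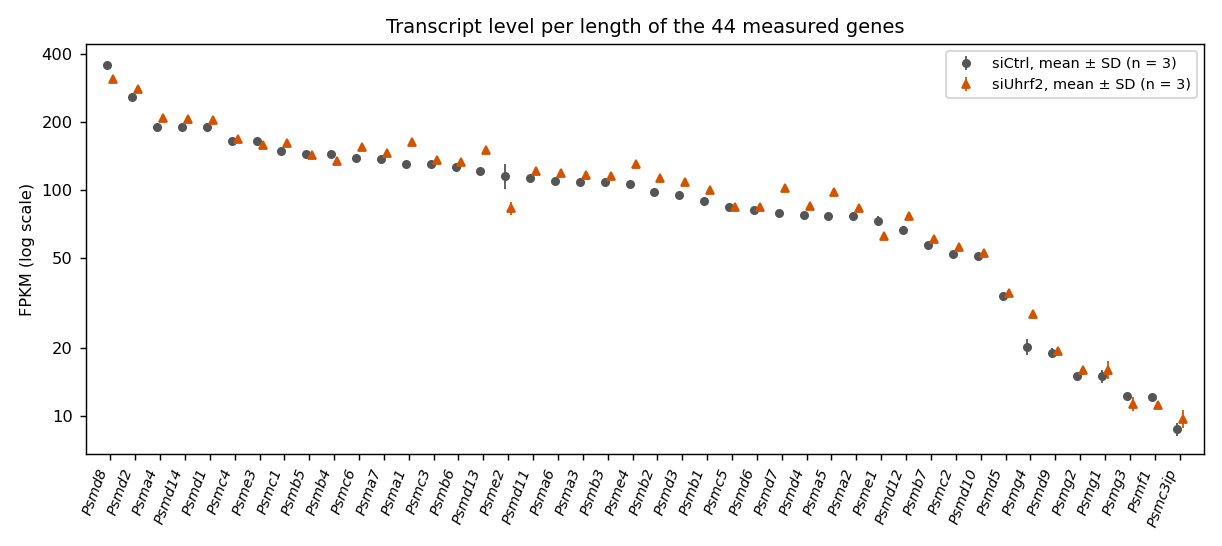
Mean FPKM ± SD of the 44 tested members in siCtrl (dots) and siUhrf2 (triangles), n = 3 each, ordered by the siCtrl level on a log axis. Psmd8 is highest at 357 FPKM in siCtrl, subunits of the core and cap follow, and assembly factors, Psmf1 and Psmc3ip are lowest.

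Neither transcript length nor level ordered the changes among members: over the 44 tested genes Spearman's rho with the log2 change was -0.01 for length, 0.08 for mean FPKM and -0.24 for GC content, as a description over genes that share their libraries. The lengths implied by the table ran from 515 to 2626 bases in members, with a median of 1053 against 1729 for all tested genes. Members lay on 16 chromosomes, with 10 genes on chromosome 11 and 6 each on chromosomes 2 and 14.

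Genes that work with the proteasome but carry other names moved in both directions. Among 13 measured genes for other subunits, assembly and proteasome-bound factors there were 7 rises (54%), 3 falls (23%) and 3 without a call. Over all tested genes, 29.9% rose and 31.1% fell, so the falls did not exceed the background share. The median log2 change of the list was 0.10. Sem1, the smallest lid subunit gene, rose from 4243 ± 78.5 to 5401 ± 184 normalized counts (SD, n = 3; log2 change 0.35), and Uchl5 and Usp14, deubiquitinases bound to the cap, rose by 0.24 and 0.10. Ecpas, a proteasome adaptor gene, rose by 0.21. Adrm1, the receptor that docks Uchl5, had a difference of -0.03.

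Pomp, which encodes the maturation factor of the 20S core, fell from 3690.4 ± 72.7 to 3075 ± 72.0 normalized counts (log2 change -0.26; limma adjusted p = 5.82e-05), while 12 of the 14 core subunits rose. Ipo9 fell by 0.12 on the log2 scale and Akirin2, which acts with Ipo9 in the nuclear import of proteasomes, rose by 0.15. Zfand2a, a proteasome-binding gene induced by arsenite and heat shock, fell the most of this list, from 2493 ± 96.1 to 1572 ± 54.2 normalized counts (log2 change -0.67; limma adjusted p = 3.28e-07).

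The NRF1 pathway list of 10 genes held 2 rises, 3 falls and 5 without a call (median log2 change -0.03), where 29.9% of all tested genes rose and 31.1% fell, so neither count exceeded the background share. Nfe2l1, which encodes NRF1, had 13351, 14836 and 14278 normalized counts in siCtrl and 18297, 20302.5 and 19941 in siUhrf2, without overlap (log2 change 0.46, SE 0.048; limma adjusted p = 9.92e-06). Nfe2l2, which encodes NRF2, rose by 0.18. Ddi2, the protease that activates NRF1, and the small MAF genes Mafg and Mafk fell, with log2 changes of -0.13, -0.15 and -0.27. Ngly1 and Vcp, which process NRF1 at the endoplasmic reticulum, had differences of 0.04 and 0.01 and did not pass. Of the NF-Y subunit genes, Nfya fell by 0.11 on the log2 scale, and Nfyb and Nfyc did not pass. The number of NRF1 pathway genes that fell was 2 without siCtrl replicate 2 or 3 or siUhrf2 replicate 2.

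Of the 9 ubiquitin supply and shuttle receptor genes reported here, 2 were called higher (22.2%), 2 lower (22.2%) and 5 neither (median log2 change 0.03). Over all tested genes, 29.9% rose and 31.1% fell, so neither count exceeded the background share. Ubb, a polyubiquitin gene, fell from 52178 ± 1594 to 46267 ± 2374 normalized counts (SD, n = 3; log2 change -0.17). Rps27a, which encodes ubiquitin fused to a ribosomal protein, had a difference of 0.10 and did not pass. The activating enzyme gene Uba1 and the shuttle receptor gene Rad23b rose by 0.11 and 0.20, while Ubqln4 changed by -0.13. Without siCtrl replicate 1 or siUhrf2 replicate 1, 3 genes of this list rose, and without both libraries numbered 1, 4 did.

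**Figure D5:**
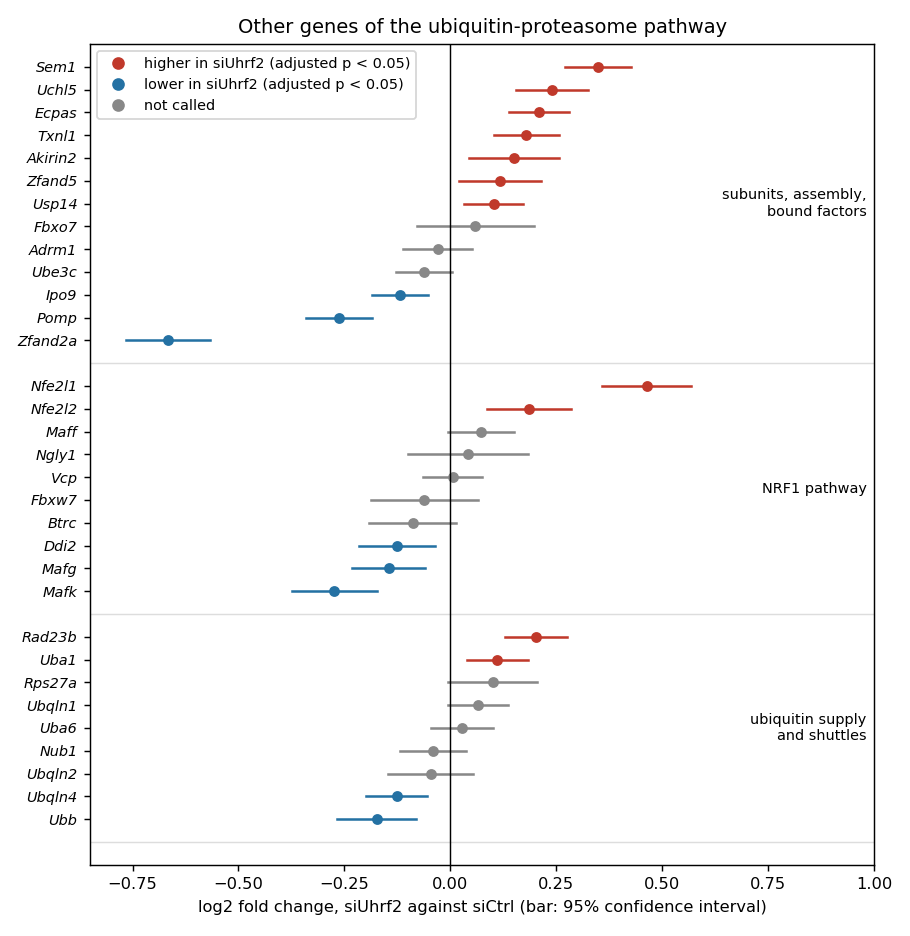
Log2 fold change with 95% confidence interval for 32 other genes of the ubiquitin-proteasome pathway in 3 lists, coloured by the limma call (siUhrf2 against siCtrl, 3 libraries each). Nfe2l1 and Sem1 have the highest values and Zfand2a the lowest, and each list holds genes on both sides of 0.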

How the data were processed

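RNA-seq of AML12 cells gave 6 libraries, 3 for each siRNA, grouped by the labels. The deposited table holds normalized counts per gene, a signal that the authors had scaled between libraries, and deposited FPKM values. The submitters' processing notes name kallisto 0.44.0, edgeR and GRCm38.p6, without their roles. Between 62.8% and 64.7% of the values were whole reads within 0.01 read, so the normalized counts are not raw counts and limma was used in place of a count test. Library totals were 48.6 to 49.6 M normalized counts. No source used here gives the strand setting of the counting.

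Values were taken as log2(normalized count + 1) from the deposited columns. The 11343 genes at a mean of at least 1 FPKM were fitted in R 4.3.3 with limma 3.58.1 (trend, robust), and p-values were adjusted by the Benjamini-Hochberg method over all of them, with calls under 0.05. Fold changes are on that log2 scale, and intervals are 95% intervals of the fit. Data were also simulated over 11343 genes, with 50 genes changed at each fold. The fit recovered 7 of 50 changed 1.1-fold, 33 of 50 changed 1.25-fold and 44 of 50 changed 1.5-fold, with 6 false calls among 140. The real fit called 6919 genes. With so few changed genes in the simulation, its adjustment of p was stricter, so its recovery does not give the power of the real fit. Promoters came from RefSeq and similar transcripts from BLAST 2.17.0 alignments.

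Any member or list gene could be named. Some genes of the ubiquitin list are not reported here, so its counts cover the reported genes and not the whole list. Library values were given for Uhrf2, the catalytic and deubiquitinase subunit genes and the members with the highest and lowest change in each subcomplex, with values of Psma1, Psmd1, Psme1, Nfe2l1 and other list genes added after they were seen. Members and lists were chosen with earlier results of these data known. Alternatives were other scalings, pseudocounts, filters and thresholds, a replicate block and each library left out.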

Additional observations from a re-analysis of the deposited data

How the results depend on the processing

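Of the 26 members that rose, 20 kept their call under every setting at an adjusted p of 0.05 without a minimum change, as did 3 of the 5 that fell, and no called member was called in the opposite direction under any setting. With a minimum of 1.2-fold (limma treat), 2 members rose and 0 fell, with 0 rising and 0 falling in the 20S core, 1 and 0 in the 19S particle and 0 activators falling. The same test called 1691 of all genes, and in the lists of other subunits, NRF1 pathway and ubiquitin supply 0, 1 and 0 rose and 1, 0 and 0 fell. At an adjusted p under 0.01, 2 members fell, 7 subunits of the 20S core rose and 0 fell, 1 activator fell, and 4 other subunits and 1 ubiquitin gene rose. Median-of-ratios, upper-quartile and quantile scaling and no filter on low values each left 3 members falling and 0 in the 20S core, where no variance trend also left 0. The median log2 change of all genes was 0.01 under each of these 3 scalings and -0.02 with equal library totals, against -0.01. Psmb5 changed sign to 0.01, 0.02 and 0.0044 under the same 3 scalings and ran from -0.02 to 0.01 with 1 library left out (0.01 without siUhrf2 replicate 2), and Psmc5 to -0.0034 without siUhrf2 replicate 3, with up to 0.04 when another library was left out. Leaving out 1 library gave 20 to 28 members higher and 3 to 4 lower, 7 to 12 and 0 to 1 for the 20S core, 11 to 13 higher for the 19S particle, 1 to 2 chaperones higher and 6010.0 to 7047 genes called. In the lists it gave 5 to 6 other subunits higher, 2 to 4 NRF1 pathway genes lower and 2 to 3 ubiquitin genes higher, and 4 of the latter without both libraries numbered 1, a setting chosen after seeing the data. The cause of these shifts was not tested. With a replicate block, 27 members rose and 5 fell, Psmc3 being the added call (adjusted p = 0.0443). Same-numbered libraries had deviations that correlated at 0.176, 0.236 and 0.066, each library best with its own number, a hint from the data and not the design. Simulated recovery was low at 1.1-fold, but far fewer genes were changed there than were called in the real fit, so it does not give the power here. The simulated noise was drawn independently for each library from each gene's own spread, so it held no pattern shared by library number. The parts of spread and depth in that recovery were not tested.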
